A study of Rattus norvegicus with 9 samples.

Results

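Titin, filamin C, myospryn, nebulette, the 2 myomesins, cardiac myosin-binding protein C, cypher and alpha-actinin 2 hold the filaments of the heart muscle sarcomere in place. Their 9 genes, Ttn, Flnc, Cmya5, Nebl, Myom1, Myom2, Mybpc3, Ldb3 and Actn2, were found by symbol among the 22601 genes of the deposited table. All 9 passed the filter on low values, which left 11717 genes. RNA of heart tissue from 48-week-old rats had been sequenced in 9 libraries, 3 per group. Wistar Kyoto rats (WKY), which have normal blood pressure, and their hypertensive relatives, spontaneously hypertensive rats (SHR), were given 1 ml of water by mouth for 34 weeks. Animals of the SHR+Allisartan group, called treated SHR here, received allisartan in the same volume of water over the same period. Allisartan blocks the angiotensin II type 1 receptor. No dose is used here, there were no treated WKY rats, and high blood pressure cannot be told apart from any other difference between the strains. Whether every library is from a separate animal is not in the labels, so the p-values reflect spread among libraries that may be partly technical.

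A sarcomere runs from one Z-disc to the next. Thin actin filaments are anchored in the Z-disc by alpha-actinin, thick myosin filaments are cross-linked at the M-band in the middle by myomesins, and a titin molecule reaches from the Z-disc to the M-band and acts as a molecular spring. Mutations of titin, filamin C, cypher and myosin-binding protein C cause inherited cardiomyopathies in humans. Titin also exists as a stiffer and a more compliant splice form, which 1 value per gene cannot resolve.

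RNA values are FPKM, fragments scaled by the length of the transcript and by the mapped fragments of the library, after 1 rescaling factor per library. FPKM is scaled by length, so it can be compared between genes as far as the authors' gene models give that length. It also takes even coverage along a transcript, which was not examined and matters most for long ones such as Ttn. In WKY the order of the mean levels was Myom2 (913 FPKM), Actn2 (798), Mybpc3 (765), Ldb3 (250), Myom1 (166), Flnc (114), Cmya5 (80.1), Ttn (40.0) and Nebl (38.1). Actn2 and Mybpc3 overlapped there, as did Ttn and Nebl, and the lowest Myom2 library (841 FPKM) was level with the highest Actn2 library (841 FPKM). In SHR the first places were taken by Mybpc3 (821 FPKM), Actn2 (727) and Myom2 (603), without overlap. In treated SHR they were taken by Myom2 (729 FPKM), Actn2 (716) and Mybpc3 (550), with Myom2 and Actn2 overlapping. Together the 9 genes held 0.826% to 0.866% of all FPKM in the WKY libraries, while the share was 0.781% to 0.825% for SHR and 0.658% to 0.712% for treated SHR.

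Promoters were searched on both strands for 8 motifs, chosen with the values known, in the 250 bases before and 50 bases after each gene's start in RefSeq's GRCr8 assembly. The files use another build. An entry was matched by symbol for 8 of the 9 genes, all but Myom2. The 4 shown hold a 10-base match to the MEF2 or the CArG motif, marked in capitals. MEF2 factors and serum response factor, which binds CArG boxes, control many muscle genes.
Ttn promoter, chr3:82332061-82332360, minus strand: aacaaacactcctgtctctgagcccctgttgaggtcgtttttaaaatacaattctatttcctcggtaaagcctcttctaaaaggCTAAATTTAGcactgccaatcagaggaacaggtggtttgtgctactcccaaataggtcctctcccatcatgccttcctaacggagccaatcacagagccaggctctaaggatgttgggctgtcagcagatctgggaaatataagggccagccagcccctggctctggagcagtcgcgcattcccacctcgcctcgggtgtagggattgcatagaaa
Mybpc3 promoter, chr3:97550811-97551110, plus strand: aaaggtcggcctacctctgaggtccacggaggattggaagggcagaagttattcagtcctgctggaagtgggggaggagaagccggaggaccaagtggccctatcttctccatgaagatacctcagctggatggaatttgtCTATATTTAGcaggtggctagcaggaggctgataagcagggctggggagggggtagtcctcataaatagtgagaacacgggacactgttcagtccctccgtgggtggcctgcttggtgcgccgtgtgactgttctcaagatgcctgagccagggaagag
Ldb3 promoter, chr16:9924630-9924929, minus strand: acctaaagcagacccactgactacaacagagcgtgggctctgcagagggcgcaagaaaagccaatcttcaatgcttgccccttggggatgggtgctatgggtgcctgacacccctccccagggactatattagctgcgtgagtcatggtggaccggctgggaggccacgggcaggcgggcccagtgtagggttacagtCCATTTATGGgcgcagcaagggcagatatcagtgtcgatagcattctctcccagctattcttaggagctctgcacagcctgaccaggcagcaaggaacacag
Nebl promoter, chr17:85135247-85135546, minus strand: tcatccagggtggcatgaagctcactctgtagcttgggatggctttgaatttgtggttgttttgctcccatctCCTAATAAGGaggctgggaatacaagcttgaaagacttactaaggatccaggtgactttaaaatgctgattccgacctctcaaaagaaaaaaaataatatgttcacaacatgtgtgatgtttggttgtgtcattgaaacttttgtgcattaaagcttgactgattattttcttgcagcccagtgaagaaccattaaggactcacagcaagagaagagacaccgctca
Counted from the start site, the MEF2 match lay at -166 to -157 in Ttn and at -109 to -100 in Mybpc3, and the CArG match at -52 to -43 in Ldb3 and at -177 to -168 in Nebl. In treated SHR against SHR both genes with the MEF2 match fell and both with the CArG match rose, as given below. With 2 genes each this is a description only. Flnc, Cmya5 and Myom1 fell there without a MEF2 match, Myom2 rose without an entry, and the rise of Nebl depended on the processing. Among all 33469 promoters in the table, 0.565% held the MEF2 motif and 1.64% the CArG motif. A looser form of the MEF2 motif matched the same sites and was held by 3.29% of all promoters. The remaining motifs were more common. CATTCC, the MCAT element, was found in Ttn and Flnc (14.2% of all promoters). GATAA was found in Mybpc3 and Myom1 (26.5%), AAGTG, a core bound by NKX2 factors, in 5 of the 8 genes (46.2%), CANNTG, the E-box, in 5 of the 8 (72.1%), and TATAAA in none of the 8 (14.2%). None of the MEF2 or CArG matches overlapped a match to another of these motifs beside the looser MEF2 form.

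Titin, the giant spring of the sarcomere, had the largest fall of the 9 genes in treated SHR, in both comparisons of that group. Ttn was at 37.1, 39.5 and 43.4 FPKM in WKY, at 41.0, 49.7 and 44.0 FPKM in SHR, and at 19.1, 16.9 and 13.5 FPKM in treated SHR. The 3 treated libraries lay far below all 6 others, whereas WKY and SHR overlapped. Against SHR the log2 change was -1.42 (SE 0.122, adjusted p = 3.77e-05), which makes the level 2.69-fold lower. Against WKY it was -1.26 (adjusted p = 9.49e-05). Between the strains it was 0.16 with a 95% interval of -0.11 to 0.43 (adjusted p = 0.38), so a strain difference was not called. It was called in 1 of 22 alternatives, scaling on cardiomyocyte markers (0.39, adjusted p = 0.0353, over a range of 0.0353 to 0.706). Of all 11717 genes, 82 had a lower log2 change than Ttn in treated SHR against SHR.

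**Figure D1:**
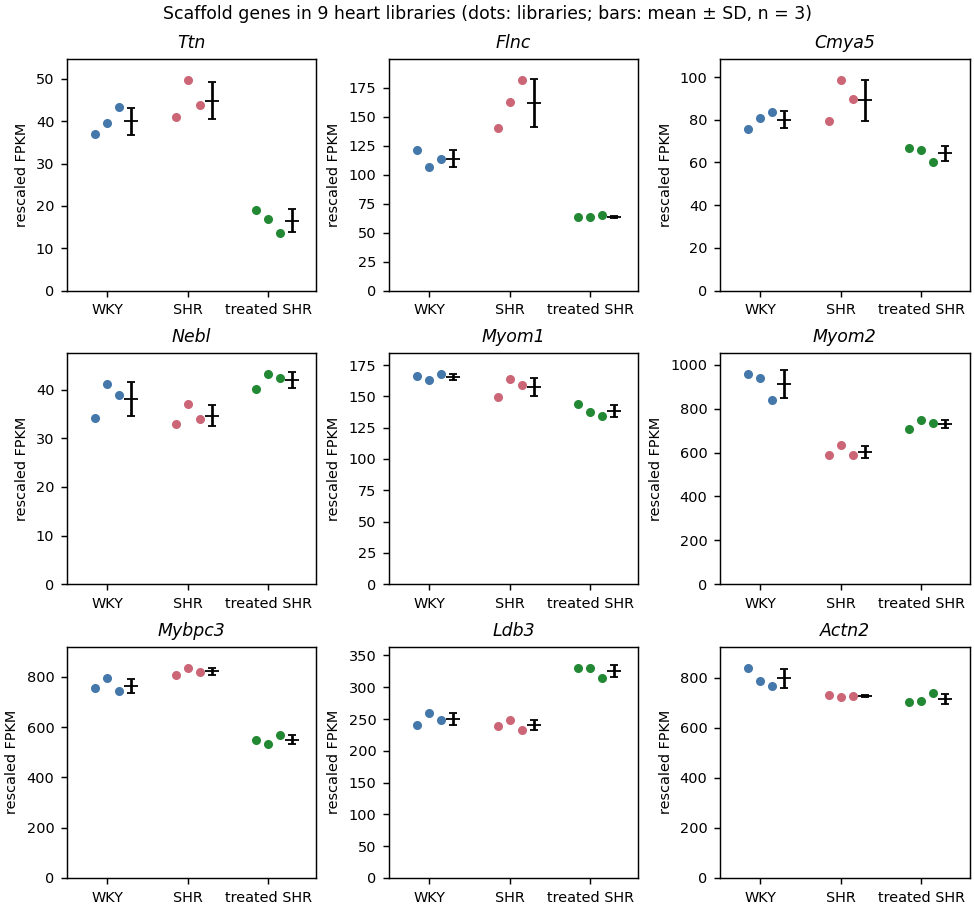
Rescaled FPKM (vertical axes, from 0) of each of the 9 genes in WKY, SHR and treated SHR; dots are libraries and bars show the mean ± SD of 3. Ttn, Flnc, Cmya5 and Mybpc3 lie lowest in the treated libraries, Ldb3 lies highest there, and Myom2 is lowest in SHR.

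Filamin C, which cross-links actin at the Z-disc and links it to the cell membrane, rose in SHR and fell in treated SHR. Flnc was at 122, 107 and 114 FPKM in WKY, at 141, 163 and 182 FPKM in SHR, and at 63.6, 63.3 and 64.9 FPKM in treated SHR. The 3 groups did not overlap. Flnc rose in SHR against WKY by 0.50 on the log2 scale (SE 0.0909, adjusted p = 0.00345), and treated SHR fell by 1.32 against SHR (adjusted p = 1.92e-05), to a level 2.50-fold lower. Treated SHR was lower than WKY too, with a log2 change of -0.83 (adjusted p = 0.000191). The treated libraries differed among themselves by little, with an SD of 0.866 FPKM against 20.7 FPKM in SHR.

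Cypher, the product of Ldb3 and a PDZ and LIM protein that binds alpha-actinin, went the other way. Ldb3 was at 241, 260 and 248 FPKM in WKY, at 239, 248 and 233 FPKM in SHR, and at 331, 331 and 314 FPKM in treated SHR. All 3 treated libraries lay above all 6 others. The log2 change was 0.44 against SHR (SE 0.0592, adjusted p = 0.000411) and 0.38 against WKY (adjusted p = 0.00138), while the strains were at -0.06 (95% interval -0.19 to 0.07, adjusted p = 0.538). With libraries scaled on cardiomyocyte markers the rise against SHR was no longer called (0.04, adjusted p = 0.607, over a range of 0.000164 to 0.607 in 22 alternatives).

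Nebulette, a small relative of nebulin that ties thin filaments to the Z-disc, was at 34.2, 41.1 and 38.9 FPKM in WKY, 32.9, 37.0 and 34.0 FPKM in SHR, and 40.1, 43.2 and 42.4 FPKM in treated SHR. Treated SHR lay above SHR without overlap and overlapped WKY. Nebl rose against SHR by 0.27 on the log2 scale (SE 0.0822, adjusted p = 0.0274), and was at 0.14 against WKY (adjusted p = 0.248) and at -0.13 between the strains (adjusted p = 0.282). The rise was not called without SHR replicate 1 (adjusted p = 0.0834), SHR replicate 3 (0.0801), treated SHR replicate 2 (0.0832) or treated SHR replicate 3 (0.0605), nor without rescaling (0.0875), with quantile normalization (0.11) or with cyclic loess (0.0881). It reversed with scaling on cardiomyocyte markers (-0.12). Over 22 alternatives the adjusted p ranged from 0.000299 to 0.28. Against WKY Nebl was called with scaling on long genes (0.44, adjusted p = 0.00259, over a range of 0.00259 to 0.825).

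Alpha-actinin 2, the main cross-linker of thin filaments in the Z-disc, was the member with the smallest change in treated SHR against SHR. Actn2 was at 841, 786 and 767 FPKM in WKY, at 732, 724 and 726 FPKM in SHR, and at 702, 706 and 740 FPKM in treated SHR. The last 2 groups overlapped, and both lay below WKY. Its log2 change in treated SHR against SHR was -0.02 with a 95% interval of -0.15 to 0.11 (adjusted p = 0.796), so falls of the size seen for Ttn or Flnc lay outside that interval. It was at -0.13 between the strains (adjusted p = 0.138) and at -0.16 in treated SHR against WKY (adjusted p = 0.083). The change against SHR depended on the scaling: Actn2 was at 0.33 (adjusted p = 0.0273) with scaling on long genes and at -0.42 (adjusted p = 0.000103) with scaling on cardiomyocyte markers, and over 22 alternatives the adjusted p ranged from 0.000103 to 0.967. Against WKY it was called with scaling on cardiomyocyte markers (-0.33, adjusted p = 0.00139, over a range of 0.00139 to 0.291).

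Myospryn, the product of Cmya5, is a large muscle protein that binds alpha-actinin, desmin and dysbindin. Cmya5 was at 75.6, 80.9 and 83.9 FPKM in WKY, at 79.3, 98.6 and 89.7 FPKM in SHR, and at 66.6, 66.0 and 60.3 FPKM in treated SHR. Treated SHR lay below both other groups, which overlapped each other. The log2 change was -0.47 against SHR (SE 0.0861, adjusted p = 0.00243), -0.32 against WKY (adjusted p = 0.0233) and 0.15 between the strains (adjusted p = 0.244). The fall against WKY was not called without WKY replicate 2 (adjusted p = 0.0686), WKY replicate 3 (0.0756) or treated SHR replicate 3 (0.0740). With scaling on long genes neither fall was called (-0.11, adjusted p = 0.392 against SHR, and -0.01, adjusted p = 0.949 against WKY). Over 22 alternatives the adjusted p ranged from 3.35e-05 to 0.392 against SHR and from 0.00295 to 0.949 against WKY. Between the strains Cmya5 was called in 1 alternative, scaling on cardiomyocyte markers (0.37, adjusted p = 0.0103, over a range of 0.0103 to 0.599).

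At the M-band the myomesin genes parted. Myom2, which encodes the M-protein, was at 958, 941 and 841 FPKM in WKY, at 587, 635 and 587 FPKM in SHR, and at 708, 746 and 732 FPKM in treated SHR. The 3 groups did not overlap, with treated SHR between the strains. Myom2 fell in SHR against WKY by 0.60 on the log2 scale (SE 0.0688, adjusted p = 0.000244), rose in treated SHR against SHR by 0.27 (adjusted p = 0.0116), and fell in treated SHR against WKY by 0.32 (adjusted p = 0.00737). The rise was not called with cyclic loess (0.14, adjusted p = 0.103) and reversed with scaling on cardiomyocyte markers (-0.12). The difference of treated SHR from WKY was not called with scaling on long genes (-0.02, adjusted p = 0.927). The adjusted p over the alternatives ranged from 0.0013 to 0.103 for the rise and from 0.000217 to 0.927 for the difference from WKY.

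Myomesin 1, the constitutive cross-linker of the M-band, was at 166, 163 and 168 FPKM in WKY, 150, 164 and 159 FPKM in SHR, and 144, 138 and 134 FPKM in treated SHR. Treated SHR was lowest, and WKY and SHR overlapped. Myom1 was at -0.08 between the strains (adjusted p = 0.411). It fell in treated SHR by 0.18 against SHR (SE 0.0600, adjusted p = 0.0391) and by 0.26 against WKY (adjusted p = 0.0116). The fall against SHR was near the threshold, and was not called in 10 of 22 alternatives, of which 9 kept its direction (adjusted p 0.0511 to 0.203, against 4.23e-05 to 0.203 over all 22). These 9 were the fit on the 6 libraries alone (0.0687), the removal of the trend with genomic span (-0.11, adjusted p = 0.203), a block for the replicate number (0.0525), and the fits without WKY replicate 2 (0.0573) or 3 (0.0511), SHR replicate 2 (0.128) or 3 (0.0925), or treated SHR replicate 2 (0.103) or 3 (0.104). The other, scaling on long genes, turned it to 0.17 against SHR and to 0.05 against WKY, neither of them called. The ratio of Myom1 to Myom2 within a library, which no scaling factor can move, was 0.173 to 0.200 for WKY, 0.255 to 0.271 for SHR and 0.184 to 0.203 for treated SHR. SHR stood above both other groups, which overlapped.

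Cardiac myosin-binding protein C stabilises and regulates the thick filament. Mybpc3 was at 756, 795 and 743 FPKM in WKY, at 809, 837 and 819 FPKM in SHR, and at 548, 532 and 570 FPKM in treated SHR. The groups did not overlap, SHR being the highest and treated SHR the lowest. Between the strains the log2 change of 0.10 (95% interval -0.03 to 0.23) was not called (adjusted p = 0.235), though it was with cyclic loess (0.23, adjusted p = 0.0293) and with scaling on cardiomyocyte markers (0.33, adjusted p = 0.0023). Mybpc3 fell in treated SHR by 0.58 against SHR (SE 0.0585, adjusted p = 8.27e-05) and by 0.48 against WKY (adjusted p = 0.000357). With scaling on long genes the log2 changes were -0.23 (adjusted p = 0.0837) and -0.17 (adjusted p = 0.206), and neither was called. Over the alternatives the adjusted p ranged from 0.0023 to 0.736 between the strains, from 2.83e-06 to 0.0837 against SHR and from 5.28e-05 to 0.206 against WKY.

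**Figure D2:**
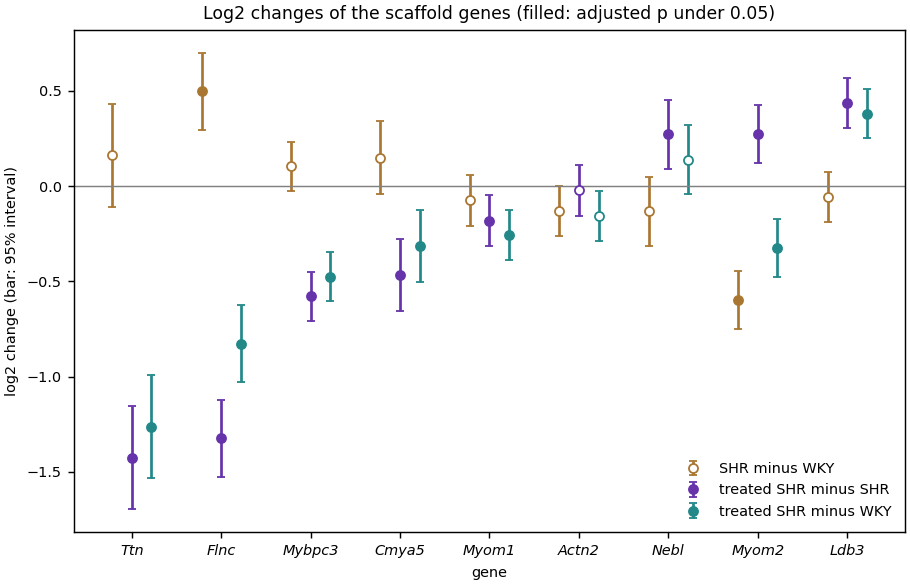
Log2 change (vertical axis) of each gene in the 3 comparisons, with 95% intervals from the limma fit to all 9 libraries. Filled points have an adjusted p under 0.05. In treated SHR minus SHR the changes run from -1.42 for Ttn to 0.44 for Ldb3, and Actn2 is at -0.02.

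Counted over the 9 genes, 1 rose and 1 fell in SHR against WKY, where 11.9% of all tested genes rose and 9.93% fell. In treated SHR against SHR 3 rose and 5 fell, where 16.1% of all tested genes rose and 17.4% fell. Against WKY, 1 rose and 6 fell in treated SHR, where 12.9% rose and 11.4% fell. For 4, 8 and 8 of the 9 genes in these comparisons no library of one group lay within the range of the other, against 40.9%, 46.4% and 40.1% of all tested genes. The median log2 changes of the 9 were -0.06, -0.18 and -0.32, beside 0.01, -0.03 and -0.01 for all tested genes. Scaling shifted these splits. Between the strains 4 rose and 1 fell with scaling on cardiomyocyte markers. In treated SHR against SHR 0 rose and 6 fell with that scaling, and 4 rose and 2 fell with scaling on long genes. The latter gave 2 up and 2 down in treated SHR against WKY. These comparisons share libraries, so their counts are not independent of each other.

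Ratios to Actn2 within each library set the measured levels against each other, free of any scaling factor. A library effect that differs with transcript length would still move them, and was not tested. The Ttn to Actn2 ratio was 0.0441 to 0.0566 for WKY, 0.0560 to 0.0687 for SHR and 0.0183 to 0.0272 for treated SHR. For Flnc to Actn2 it was 0.135 to 0.148, 0.192 to 0.251 and 0.0878 to 0.0906. For Mybpc3 to Actn2 it was 0.900 to 1.01, 1.11 to 1.16 and 0.754 to 0.780. Treated SHR was lowest for these 3 ratios. For Cmya5 to Actn2 it was 0.0900 to 0.109, 0.108 to 0.136 and 0.0815 to 0.0949, so treated SHR lay below SHR but overlapped WKY (exact permutation p = 0.3). The Ldb3 to Actn2 ratio was 0.287 to 0.330 for WKY, 0.320 to 0.343 for SHR and 0.425 to 0.471 for treated SHR, highest in the last. Ldb3 to Mybpc3 went from 0.284 to 0.297 in SHR to 0.552 to 0.622 in treated SHR, without overlap. With 3 libraries against 3, the exact two-sided permutation test cannot give a p below 0.1, and treated SHR against SHR reached that p for each of these 6 ratios.

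Most of these genes have long transcripts, so other genes with long coding sequences were examined. From a list of 48, among them Fbn1, Hspg2 and Ahnak, 42 were tested. In treated SHR against SHR 2 of them rose and 22 fell (4.76% and 52.4%), beside 16.1% and 17.4% of all tested genes. Their median log2 change was -0.35 against -0.03 for all tested genes, and 37 of the 42 were below 0. Against WKY 0 rose and 18 fell in treated SHR (median -0.29), beside 12.9% and 11.4% of all tested genes. In SHR against WKY 7 rose and 3 fell (median 0.05), beside 11.9% and 9.93%. The long genes thus moved in the same direction as Ttn in the treated libraries. Their part in the result was not tested. Of the 42 listed long genes, 2 had a lower log2 change than Ttn, and no more than these 2 were lower than Flnc: Fbn1, which encodes fibrillin 1 of the matrix, at -1.85, and Lrp1, an endocytic receptor, at -1.47. With the libraries scaled to level the median of the long genes, treated SHR against SHR was at -1.08 for Ttn (adjusted p = 0.000244) and at -0.97 for Flnc (adjusted p = 0.000168), both called. That scaling divides each library by 1 factor and shifts all genes alike. It cannot take out an effect that grows with transcript length, so these calls do not address such an effect. Under that scaling Cmya5, Mybpc3 and Myom1 were not called, as given above, and Ldb3, Nebl and Myom2 were at 0.79, 0.62 and 0.63. The median of all tested genes moved with them, from -0.03 to 0.28, and 4680 genes were called up and 631 down.

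In the treated libraries the deviation of Ttn from its mean over all 9 libraries was -0.68, -0.85 and -1.16 on the log2 scale. The median deviation of the long genes in the same libraries was -0.30, -0.21 and -0.13. In the WKY and SHR libraries Ttn was at 0.26 to 0.68 and the long-gene median at -0.02 to 0.19. Both were thus lower in every treated library. Within the treated group, the library with the lowest Ttn had the least reduced long genes. This order of 3 libraries is a description only, and a library effect was not tested. Flnc was at -0.72, -0.73 and -0.70 in the treated libraries.

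**Figure D3:**
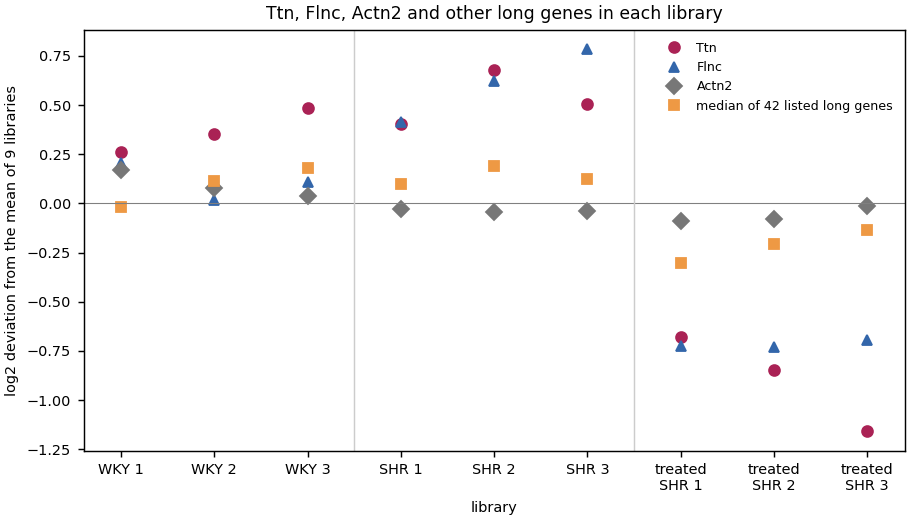
Log2 deviation from the mean of the 9 libraries (vertical axis) for Ttn, Flnc, Actn2 and the median of 42 listed long genes in each library. In the treated libraries Ttn goes from -0.68 to -1.16 and the long-gene median from -0.30 to -0.13. Both lie below all WKY and SHR libraries there.

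Transcript lengths were not used here, and genomic spans served as ranks only. A span includes introns and does not stand for transcript length, whose part in these changes was not tested. By span, Nebl stood at the 98.2 percentile of tested genes, Ttn at 96.9, Myom1 at 89.9, Cmya5 at 86.0, Myom2 at 80.2, Actn2 at 78.7, Ldb3 at 77.3, Flnc at 54.8 and Mybpc3 at 41.5. Nebl, with the longest span of these, rose in treated SHR against SHR, though that call depended on the processing. Flnc and Mybpc3, with the shortest spans, fell, and so did Ttn, Myom1 and Cmya5, at the 86.0 percentile or above. Over all tested genes the median log2 change in that comparison was -0.01 in the decile of genes with the shortest spans and -0.09 in the decile with the longest. Once the trend with span was removed, Ttn was at -1.34 and Flnc at -1.31. That trend was small beside these changes, so its removal could move them by little. It does not address transcript length.

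**Figure D4:**
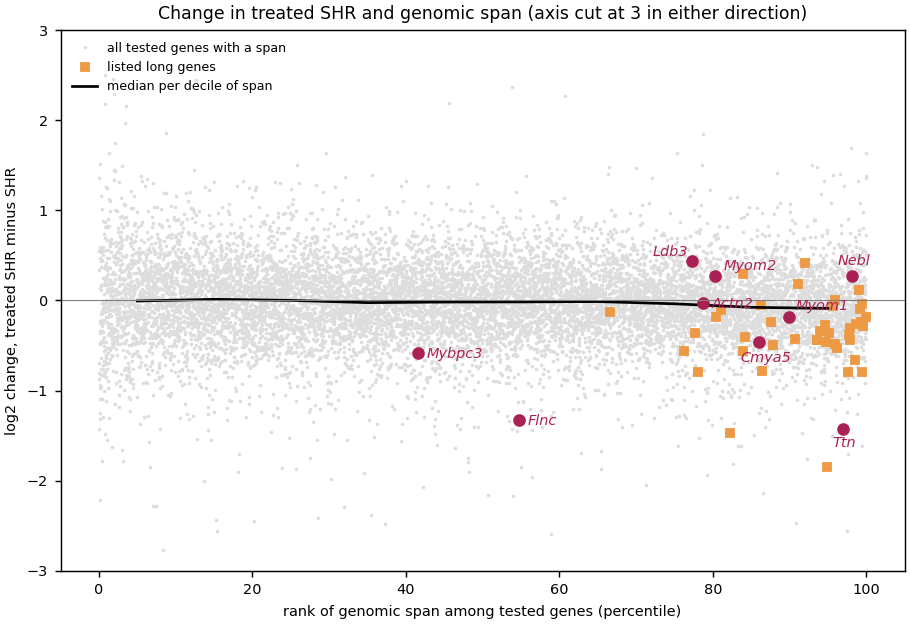
Log2 change in treated SHR minus SHR against the rank of genomic span (percentile) for all tested genes with a span (grey), the listed long genes (squares) and the 9 scaffold genes (labelled); the black line joins the medians over deciles of span. The line lies between 0.01 and -0.09, and Ttn and Flnc lie far below it at different spans. Span includes introns and does not stand for transcript length.

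The mix of cells and of cardiomyocyte transcripts moved between the groups as well, and in bulk RNA fewer cells of a type and less RNA per cell cannot be told apart. The summed level of 12 ventricular cardiomyocyte markers was 39500 to 42700 FPKM for WKY, 35000 to 35200 for SHR and 45400 to 47100 for treated SHR, with all 12 above 0 in every library. In treated SHR against SHR 8 of these 12 rose and 3 fell, beside 16.1% and 17.4% of all tested genes. Ttn, Flnc and Mybpc3 fell in that comparison, as 3 of the markers did, and no cause was tested. Among the markers that rose, Tnni3, a troponin subunit, was at 1.19 and Myl3, a myosin light chain, at 0.73. The 3 that fell were Ryr2, a calcium channel with a long coding sequence (-0.79), Myh7 (-0.72) and Actc1, cardiac alpha-actin (-0.53). Fibroblast markers (10 of 10 above 0) summed to 411 to 444, 629 to 678 and 423 to 460 FPKM in WKY, SHR and treated SHR. Macrophage markers (8 of 8 above 0) summed to 136 to 155, 378 to 449 and 200 to 245 FPKM. Both sums were highest in SHR, as Flnc was, and their part in that result was not tested. Skeletal muscle markers summed to at most 2.04 FPKM in any library, with 3 of 13 above 0 in every library. Smooth muscle markers (7 of 7 above 0) summed to 84.2 to 102, 113 to 143 and 105 to 128 FPKM, and endothelial markers (8 of 8) to 153 to 173, 153 to 165 and 152 to 167 FPKM. Erythroid markers (3 of 5 above 0) summed to 73.0 to 130, 40.3 to 81.2 and 87.1 to 266 FPKM, and of 4 tested 3 rose and 1 fell in treated SHR against SHR (median 0.99). The atrial list (5 of 7 above 0) summed to 1600 to 2040, 3320 to 6040 and 243 to 501 FPKM, of which Nppa, a peptide gene that ventricles express under load, made up nearly all, since the atrial genes Myl7 and Sln did not exceed 2.49 and 7.45 FPKM. The markers go with the heart label and with ventricle as the main tissue. The part of these lists in the changes of the 9 genes was not tested.

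Partners of these proteins at the Z-disc were taken from a list of 39 genes, 34 of them tested. For this list and those that follow, the shares over all tested genes were 11.9% up and 9.93% down in SHR against WKY. They were 16.1% and 17.4% in treated SHR against SHR, and 12.9% and 11.4% in treated SHR against WKY. In SHR against WKY 9 rose and 2 fell (median log2 change 0.16), in treated SHR against SHR 5 rose and 16 fell (median -0.20), and in treated SHR against WKY 6 rose and 9 fell (median -0.07). With scaling on long genes the last 2 comparisons gave 13 up and 9 down (median 0.14) and 13 up and 3 down (median 0.24), so the direction of the list depended on the scaling. Xirp2, which encodes the actin-binding Xin repeat protein 2 and binds filamin C and alpha-actinin, was at 78.7, 82.2 and 92.1 FPKM in WKY, 150, 147 and 208 FPKM in SHR and 50.2, 50.9 and 61.9 FPKM in treated SHR. The order of its groups was that of Flnc, without overlap: it rose by 0.98 in SHR against WKY (adjusted p = 0.000668), and fell by 1.61 in treated SHR against SHR (adjusted p = 3.11e-05) and by 0.63 against WKY (adjusted p = 0.00695, not called with scaling on long genes at 0.0786). Ankrd23, an ankyrin repeat protein that binds titin, fell by 2.01 in treated SHR against SHR (adjusted p = 2.26e-05) and by 1.11 against WKY (adjusted p = 0.000652). Its relative Ankrd1 was at 0.26 between the strains (adjusted p = 0.0756) and fell by 0.47 in treated SHR against SHR (adjusted p = 0.00387, but 0.475 with scaling on long genes). Against WKY it was at -0.21 in treated SHR (adjusted p = 0.135). The strain difference of Ankrd1 was called in 6 of 22 alternatives, among them quantile normalization (0.00217), cyclic loess (0.0188) and a block for the replicate number (0.0291), over a range of 0.00217 to 0.292. The difference of treated SHR from WKY was called in 2, quantile normalization (0.00216) and scaling on cardiomyocyte markers (0.014).

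Csrp3, muscle LIM protein, fell by 0.72 in treated SHR against SHR (adjusted p = 0.000608) and by 0.43 against WKY (adjusted p = 0.0142), the latter not called without treated SHR replicate 2 (0.0558) or with scaling on long genes (0.439). Between the strains it was at 0.29 (adjusted p = 0.0735), and was called in 6 of 22 alternatives, among them no rescaling (0.0488), quantile normalization (0.02), cyclic loess (0.0252) and the fit without treated SHR replicate 3 (0.0383), over a range of 0.00437 to 0.234. Synm, an intermediate filament protein, fell by 1.42 in treated SHR against WKY (adjusted p = 0.000181). Among the 5 that rose in treated SHR against SHR were Nexn, an actin-binding Z-disc protein, by 0.73 (adjusted p = 0.000146), and Capzb, which caps thin filaments at the Z-disc, by 0.58 (adjusted p = 8.24e-05). Pdlim3, a relative of Ldb3, rose by 0.65 in treated SHR against SHR (adjusted p = 0.000529) and by 0.66 against WKY (adjusted p = 0.00077). Between the strains Fhl1, a LIM protein that binds titin, rose by 0.62 (adjusted p = 0.000999), and Nexn fell by 0.33 (adjusted p = 0.0152), not called without SHR replicate 2 (0.0532), with cyclic loess (0.0511) or with scaling on cardiomyocyte markers (0.376). Tcap, the titin cap, was listed at 0.305 to 1.87 FPKM in the 9 libraries and was called in none of the comparisons, with SDs of 0.223 to 0.601 FPKM. Tcap is known as an abundant transcript of heart muscle, so this row may not capture it, and its level is not interpreted.

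At the M-band, 14 partners were tested. In SHR against WKY 0 rose and 6 fell (median -0.10), in treated SHR against SHR 5 rose and 1 fell (median 0.15), and in treated SHR against WKY 2 rose and 4 fell (median 0.11). Scaling on cardiomyocyte markers turned the medians to 0.12, -0.25 and -0.06, with 1 up and 7 down in treated SHR against SHR. Scaling on long genes gave 11 up and 1 down in that comparison and 8 up and 1 down in treated SHR against WKY. Myom3, the third myomesin, was at a low level of 3.29 ± 0.509 FPKM in SHR and 7.54 ± 1.09 FPKM in treated SHR, a rise of 1.09 on the log2 scale (adjusted p = 0.000339). Lrrc39, which encodes a myosin-binding M-band protein, fell by 0.40 between the strains (adjusted p = 0.00239) and rose by 0.50 in treated SHR against SHR (adjusted p = 0.000419), neither of them called with scaling on cardiomyocyte markers (0.0688 and 0.219).

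Of 6 tested myosin-binding and thick-filament genes, 1 rose and 3 fell in SHR against WKY, 3 rose and 2 fell in treated SHR against SHR, and 3 rose and 1 fell in treated SHR against WKY. Scaling on cardiomyocyte markers gave 1 up and 0 down, 2 up and 3 down, and 3 up and 2 down. Myh7, the beta myosin heavy chain, fell by 0.38 between the strains (adjusted p = 0.00559, but 0.086 with cyclic loess and 0.115 with scaling on cardiomyocyte markers), by 0.72 in treated SHR against SHR (adjusted p = 0.000113) and by 1.11 against WKY (adjusted p = 1.3e-05). The light chain gene Myl2 rose by 0.57 in treated SHR against SHR (adjusted p = 0.000385, but 0.0997 with scaling on cardiomyocyte markers) and by 0.56 against WKY (adjusted p = 0.000665). Mybpc2, the fast skeletal relative of Mybpc3, was low at 1.41 ± 0.263 FPKM in WKY and 3.87 ± 0.929 FPKM in SHR, a rise of 1.18 on the log2 scale (adjusted p = 0.00164), and fell by 0.74 in treated SHR against SHR (adjusted p = 0.0117, but 0.071 with scaling on long genes).

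Thin-filament length genes numbered 9 tested, of which 3 rose and 2 fell in SHR against WKY, 2 rose and 5 fell in treated SHR against SHR, and 2 rose and 2 fell in treated SHR against WKY. The median in treated SHR against SHR was -0.31, and 0.04 with scaling on long genes (4 up, 2 down). Acta1, skeletal alpha-actin, had the largest changes, rising by 2.04 between the strains (adjusted p = 7.35e-05) and falling by 1.84 in treated SHR against SHR (adjusted p = 0.000106). Tmod1, the cap of the thin filament's pointed end, fell by 0.52 in treated SHR against SHR (adjusted p = 0.000411, but 0.23 with scaling on long genes), whereas its relative Tmod4 rose by 1.45 (adjusted p = 0.000182).

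Costameres couple Z-discs to the cell membrane. Of 24 such genes 3 rose and 5 fell in SHR against WKY (12 and 2 with scaling on cardiomyocyte markers), 3 rose and 13 fell in treated SHR against SHR (median -0.27), and 2 rose and 12 fell in treated SHR against WKY (median -0.25). With scaling on long genes, some of which are costamere genes themselves, the latter 2 comparisons gave 5 up and 3 down (median 0.06) and 5 up and 4 down (median 0.03). Tln1, which encodes the integrin-binding protein talin 1, fell by 0.92 in treated SHR against SHR (adjusted p = 4.17e-05), and Dtna, a dystrobrevin, fell by 0.70 in SHR against WKY (adjusted p = 0.000491). Sgcb, a sarcoglycan, rose by 0.54 in treated SHR against SHR (adjusted p = 0.000175, but 0.0804 with scaling on cardiomyocyte markers).

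Splicing regulators of titin and cypher numbered 8 tested. Of these 1 rose and 1 fell in SHR against WKY, 12.5% each, near the 11.9% and 9.93% of all tested genes. In treated SHR against SHR 3 rose and 1 fell, and in treated SHR against WKY 2 rose and 0 fell. In treated SHR against SHR the list's median of 0.04 turned to -0.31 with scaling on cardiomyocyte markers. Rbm20, which represses the inclusion of titin exons, was at 15.7 ± 0.542 FPKM in WKY, 19.7 ± 0.778 FPKM in SHR and 18.0 ± 1.60 FPKM in treated SHR. It rose by 0.32 in SHR against WKY (adjusted p = 0.0176), not called without WKY replicate 1 (0.0622), SHR replicate 2 (0.0582) or SHR replicate 3 (0.0611), or with scaling on long genes (0.11). Rbfox1 was at 17.0, 16.8 and 16.6 FPKM in WKY, 10.7, 10.8 and 7.39 FPKM in SHR and 31.8, 33.3 and 27.0 FPKM in treated SHR. It fell by 0.79 in SHR against WKY (adjusted p = 0.00238) and rose by 1.64 in treated SHR against SHR (adjusted p = 3.06e-05). Rbm24 rose by 0.74 in treated SHR against SHR (adjusted p = 0.00072). Exon use was not measured.

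Among 6159 genes with a mean of at least 5 FPKM, the log2 profile most like that of Ttn over the 9 libraries was that of Prdx6, a peroxiredoxin (Pearson r = 0.990), followed by Cops8 (0.989) and LOC501116 (0.985). For Flnc these were Mfge8 (0.991), Clic5 (0.990) and Eif3b (0.989). For Myom2 they were Rprd1b (0.984), Amd1 (0.975) and Chkb (0.973), and for Nebl Wnk2 (0.973), Pcca (0.952) and Idua (0.934). The 9 libraries fall into 3 groups and share the rescaling, so these values describe how the group means line up and have no test.

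**Figure D5:**
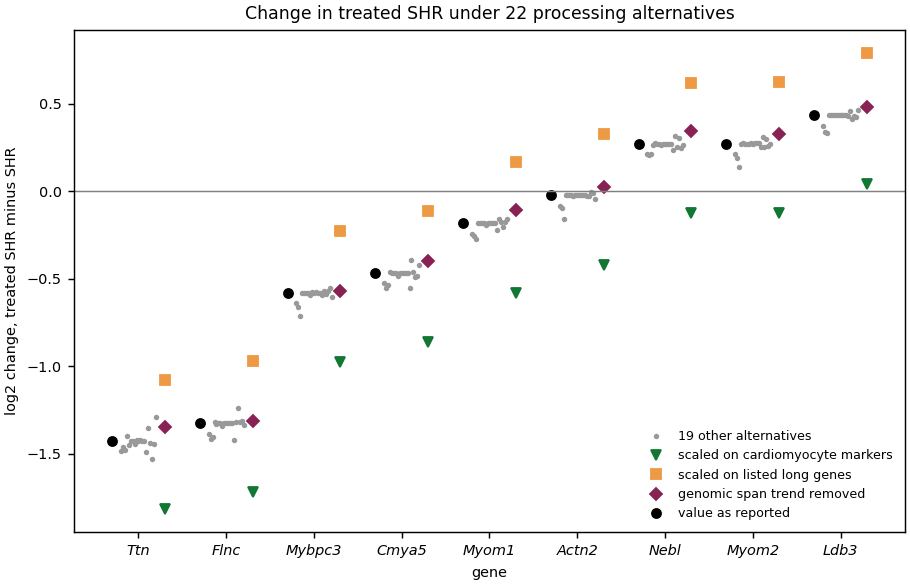
Log2 change in treated SHR minus SHR (vertical axis) of each gene as reported (black) and under 22 alternatives; triangles are scaling on cardiomyocyte markers, squares scaling on listed long genes, diamonds removal of the span trend and grey dots the 19 others. Ttn stays between -1.82 and -1.08 and Flnc between -1.72 and -0.97, while Nebl, Myom1, Myom2 and Actn2 have points on both sides of 0.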

How the data were processed

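Heart RNA was extracted with the mirVana kit and stranded TruSeq mRNA libraries were made, per the labels' protocols. The table deposited by the authors gives 1 FPKM value per gene and library, and no counts. Trimmomatic, HISAT2, Cufflinks, HTSeq and DESeq with build Rnor_6.0 are named, without versions or roles, in the submitters' processing notes. Depth is unknown, so no counting interval is given.

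Each library was divided by a median-of-ratios factor (0.965 to 1.04). Genes at 0.5 FPKM or more in at least 3 libraries were tested. Log2(FPKM + 0.5) compresses changes at low levels. On it, R 4.3.3 with limma 3.58.1 fitted 3 group means to 9 libraries with a variance trend. Two-sided p-values were corrected by the Benjamini-Hochberg method over 11717 genes within each comparison, with calls made below an adjusted p of 0.05. The procedure was tested on simulated data. Total FPKM was 359207 to 388172, and log2 values correlated at 0.985 to 0.990 within groups and 0.961 to 0.975 between groups. Spans and names came from RefSeq's GRCr8 by gene identifier (91.3% of the table matched).

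The 9 genes, the lists and the naming rule were chosen with earlier results of these data known. The rule took all 9 genes, Tcap, Csrp3, Ankrd1, Xirp2 and 1 partner not reported here, and per list and comparison up to 2 called genes in each direction by smallest p, of which the text gives some. For likeness it took the 3 highest Pearson correlations. Plots were made in Python 3.11.15 by matplotlib 3.10.9.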

Additional observations from a re-analysis of the deposited data

How the results depend on the processing

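Over the 22 alternatives, 7 of the 27 results for the 9 genes (9 genes in 3 comparisons) kept their direction and call throughout: Ttn and Flnc in both comparisons of treated SHR, Flnc and Myom2 in SHR against WKY, and Ldb3 in treated SHR against WKY. Of 594 recomputed values 547 kept both, 26 lost and 7 gained a call, and 14 changed sign. Scaling on cardiomyocyte markers moved the median of all genes to 0.21, -0.37 and -0.16 in the 3 comparisons, and scaling on long genes, added after the data were seen, to -0.03, 0.28 and 0.26, so calls under these scalings are relative to those shifts. With cardiomyocyte scaling 4057 genes (3592 up, 465 down) and 5 of the 9 were called in SHR against WKY, and 6643 genes (455 up, 6188 down) in treated SHR against SHR, beside 2561, 2 and 3924 as reported. With long-gene scaling 4300 genes (3984 up, 316 down) and 4 of the 9 were called in treated SHR against WKY, beside 2852 and 7.

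Leaving out single libraries gave 1551 (without SHR replicate 3) to 2623 called genes in SHR against WKY, 2860 to 3838 in treated SHR against SHR and 1909 to 2766 in treated SHR against WKY. It gave 2 to 2, 6 to 8 and 6 to 7 called genes of the 9.

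Sign changes under cardiomyocyte scaling were, in SHR against WKY, Nebl 0.0898, Myom1 0.15, Ldb3 0.17, Actn2 0.0924 and Tcap 0.13, in treated SHR against SHR, Nebl -0.12, Myom2 -0.12 and Pcnt -0.0752, and in treated SHR against WKY, Nebl -0.0319. Under long-gene scaling they were, in treated SHR against SHR, Myom1 0.17, Actn2 0.33 and Ptbp1 0.0398, and in treated SHR against WKY, Myom1 0.0503, Actn2 0.15, Ankrd1 0.095 and Fhod3 0.0923. Ldb3 in SHR against WKY turned to 0.0269 with quantile normalization and 0.0364 with cyclic loess, and Actn2 in treated SHR against SHR to 0.0264 once the span trend was removed. Tcap in SHR against WKY turned to 0.0226 without rescaling, 0.047 with a pseudocount of 0.1 and 0.14 with array weights, and ranged from -0.30 (without WKY replicate 2) to 0.34 (without WKY replicate 1) with single libraries left out, among them 0.15 without SHR replicate 1. Beyond what each scaling does by construction, the cause was not tested.

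With a replicate block 2544, 3851 and 2758 genes and 2, 7 and 7 of the 9 were called, and the call lost was Myom1 in treated SHR against SHR (0.0525). Same-numbered libraries of different groups deviated with correlations of -0.062 to 0.083, none of 9 above 0.1. With 3 libraries per group and no other pairs for reference, these values do not settle whether the numbers pair them. A trend with protein length was not run. Arms of 3 libraries, unknown depth and 1 value per gene limit what these data can show, titin splice forms included.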
